A study of Saccharomyces cerevisiae with 24 samples.

Results

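The transfer RNA (tRNA) genes of the budding yeast strain W303 were described from the annotation that was made for a ChIP-seq study of Uls1 and Top2. A gene was every feature of the class tRNA, and exon features of 1 chromosome that carried the same group number were joined. This gave 117 genes from 141 tRNA features, out of 6264 features in the annotation. The supplement of the study gives 141 tRNA genes, which is the number of features before exons were joined. The amino acid and the codon were read from the text of each feature. All 117 genes were on chromosomes 1 to 7. No tRNA feature was annotated on chromosomes 8 to 16, so counts per family cover only the first 7 chromosomes of W303.

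The study comprises 24 ChIP-seq libraries. IP and input samples each form their own groups, which gives 12 groups with 2 replicates in each. FLAG-tagged Uls1 was studied in WT cells, and Top2-HA, from an extra tagged copy of TOP2 under its own promoter, in WT and uls1Δ cells. Uls1 is a Snf2 family ATPase and Top2 is the type II topoisomerase. Cells were kept for 2 h without acriflavine (ACF), a Top2 poison, or with it at 100 µM for Uls1 and 250 µM for Top2. No library value was used here. The annotation holds positions and labels of 1 genome, which carry no replicate error, and no test was run on them. What follows is thus a description of the genes and gives no level of Uls1 or Top2 at them.

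tRNAs carry amino acids to the ribosome and read codons of the mRNA through their anticodon. Their genes are short and are transcribed by RNA polymerase III. The promoter lies inside the gene, in an A box and a B box that are bound by the factor TFIIIC, which in turn places TFIIIB upstream of the start. Some tRNA genes carry an intron beside the anticodon, which the tRNA splicing endonuclease (SEN genes) removes from the transcript. In yeast tRNA genes are repeated and scattered over the chromosomes, and they serve as landing sites for Ty retrotransposons. The authors used tRNA features as regions when they looked at signal over repeated loci.

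Introns were found in 24 of the 117 genes, in 9 of the 36 codon families. Within these 9 families every gene was split, and no family held both split and unsplit genes. The S288C sequences of 1 gene of each family are printed from RefSeq (build R64) to show where the intron sits. They are the partners of the first W303 gene of each family that had a split partner, from 5′ to 3′, with the intron as annotated in S288C in capitals.
SUP56, leucine UUG, chr1:181141-181254, plus strand: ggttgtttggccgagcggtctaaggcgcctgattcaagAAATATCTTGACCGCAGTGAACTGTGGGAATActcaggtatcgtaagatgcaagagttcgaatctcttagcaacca
YNCB0002W, phenylalanine UUC, chr2:36398-36488, plus strand: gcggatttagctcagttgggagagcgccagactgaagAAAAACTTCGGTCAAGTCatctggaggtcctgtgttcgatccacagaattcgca
SUP2, tyrosine UAC, chr4:946312-946400, plus strand: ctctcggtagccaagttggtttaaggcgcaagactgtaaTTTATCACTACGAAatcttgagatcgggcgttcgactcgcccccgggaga
YNCD0003W, lysine AAA, chr4:359577-359672, plus strand: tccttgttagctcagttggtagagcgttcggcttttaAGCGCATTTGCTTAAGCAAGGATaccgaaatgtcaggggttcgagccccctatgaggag
TRN1, proline CCA, chr1:139152-139254, plus strand: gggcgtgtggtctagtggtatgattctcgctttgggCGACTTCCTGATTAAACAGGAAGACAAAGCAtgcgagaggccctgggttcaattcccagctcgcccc
YNCG0009C, tryptophan UGG, chr7:287350-287455, minus strand: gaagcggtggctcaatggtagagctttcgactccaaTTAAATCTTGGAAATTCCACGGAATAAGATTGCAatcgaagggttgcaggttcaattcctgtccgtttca
YNCF0009C, serine AGC, chr6:191513-191613, minus strand: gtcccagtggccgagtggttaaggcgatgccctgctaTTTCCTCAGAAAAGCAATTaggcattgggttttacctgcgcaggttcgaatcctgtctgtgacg
SUP61, serine UCG, chr3:227942-228042, plus strand: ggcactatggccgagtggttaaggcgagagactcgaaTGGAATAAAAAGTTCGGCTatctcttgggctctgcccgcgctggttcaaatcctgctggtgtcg
YNCD0017W, isoleucine AUA, chr4:884361-884493, plus strand: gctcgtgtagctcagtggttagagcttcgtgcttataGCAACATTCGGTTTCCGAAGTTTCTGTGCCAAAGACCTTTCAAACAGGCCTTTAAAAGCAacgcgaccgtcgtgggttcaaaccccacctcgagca
In all 60 split tRNA genes of S288C the intron began 1 base after the anticodon as it was read. The reading favoured a triplet that ends 1 base before the intron, so this count is in part built in and was not tested otherwise. The length of the insert differed between families.

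The largest split family in W303 was leucine UUG with 6 genes. Their introns were 30 bases long in 5 genes and 31 bases in W303_0Dtrna17L. Phenylalanine UUC had 4 genes, with introns of 17 bases in 3 of them and 16 bases in W303_0Btrna6F. The 3 tyrosine UAC genes had the shortest introns, of 12 bases. The 3 lysine AAA genes had introns of 21 bases, the 2 proline CCA genes of 29 bases and the 2 tryptophan UGG genes of 32 bases. Introns of 17 bases were found in the 2 serine AGC genes and in the serine UCG gene. The isoleucine AUA gene W303_0Dtrna12I had the longest intron, of 58 bases, and with 133 bases it was the longest tRNA gene of the annotation. The next longest were W303_0Dtrna17L with 115 bases and the other 5 leucine UUG genes with 114 bases each. Over the 24 genes the median intron was 21 bases. Intron length thus varied between families by far more than within them, where it differed by at most 1 base.

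**Figure D1:**
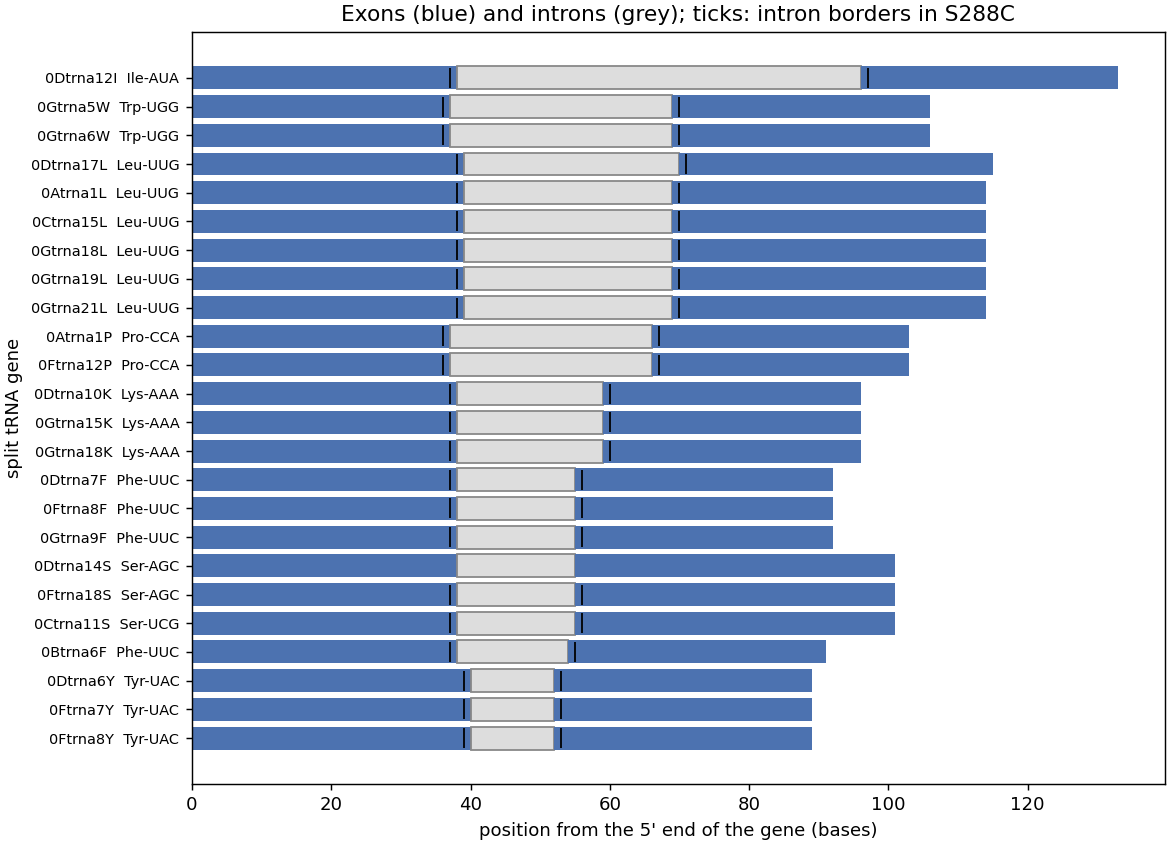
Exons (blue) and introns (grey) of the 24 split W303 tRNA genes, in bases from the 5′ end of each gene, with the intron borders of the S288C partner as black ticks. The first exons are 37 to 40 bases long in all 24 genes while introns run from 12 to 58 bases, and the ticks lie 1 base outside each grey box. W303_0Dtrna14S has no ticks because its S288C partner is annotated without an intron.

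The 5′ exons of the 24 genes were 37 to 40 bases long and the 3′ exons 37 to 46 bases. The introns of W303 were compared with those of S288C in the 23 genes whose partner is also split. In all 23 the W303 intron was 2 bases shorter and each exon 1 base longer, while the whole gene had the same length in both strains. The intron lengths given for W303 are those of its own annotation, and the printed S288C introns are longer by these 2 bases. The strand text of the split genes also needs care. In 11 of the 24 genes, the 2 exon features were listed on opposite strands. The strand of the first listed exon was that of the S288C partner in all 24 genes and was used here.

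Sequence varied more in introns than in exons among the S288C partners of 1 family. The 6 leucine UUG partners had 4 different introns but 1 exon sequence. The 3 tyrosine partners had 2 introns and 1 exon sequence, as had the 3 lysine AAA partners, and the 2 proline CCA partners had 2 introns and 1 exon sequence. The 2 tryptophan partners had 1 intron and 1 exon sequence. Phenylalanine UUC was the only split family with 2 exon sequences, beside 3 introns in 4 genes.

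The 36 codon families covered 20 amino acids and differed in size. Glycine GGC was the largest with 9 genes, followed by glutamate GAA with 8. Lysine AAG, glutamine CAA and serine UCU shared the next rank with 7 genes each. A family of 5 or more genes was seen 8 times, and these 8 families held 55 of the 117 genes. Another 19 families had 2 to 4 genes. The 9 glycine GGC genes were also the shortest of the annotation, each of 71 bases, and no other gene was that short. Unsplit genes had a median length of 72 bases and reached 84 bases, and split genes ran from 89 to 133 bases, so that the lengths of both kinds did not overlap.

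**Figure D2:**
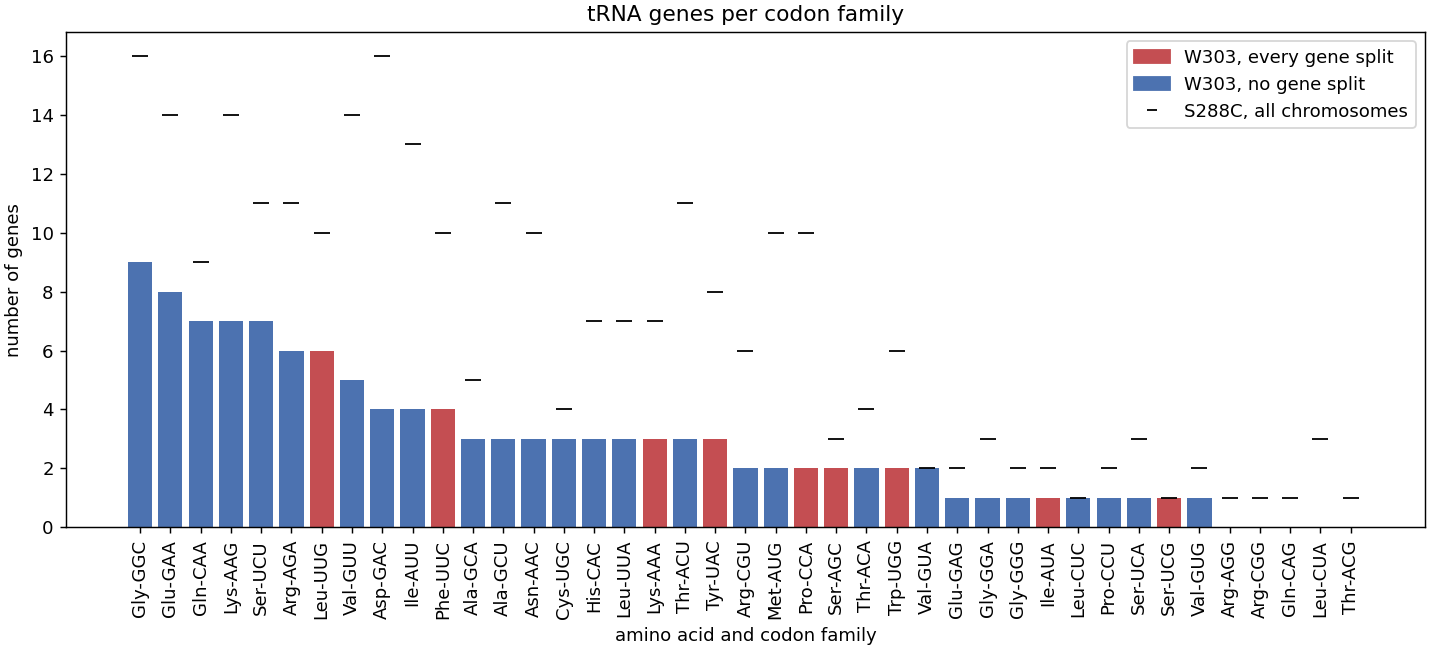
Number of W303 tRNA genes per codon family (bars, chromosomes 1 to 7; red where every gene is split, blue where none is) with the number in S288C on all nuclear chromosomes (black dashes). Families run from 9 genes for glycine GGC to 1 gene, and the 5 families at the right have genes in S288C only on chromosomes 8 to 16.

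A family of 1 gene was seen 9 times. These were isoleucine AUA (W303_0Dtrna12I), proline CCU (W303_0Ctrna11P), leucine CUC (W303_0Gtrna20L), glutamate GAG (W303_0Dtrna9E), glycine GGA (W303_0Gtrna19G) and GGG (W303_0Dtrna15G), valine GUG (W303_0Dtrna12V), serine UCA (W303_0Etrna17S) and serine UCG (W303_0Ctrna11S). In S288C, 7 of the 9 families had a further gene or genes on chromosomes 8 to 16. Leucine CUC and serine UCG were the exceptions, with 1 gene in the whole nuclear genome. The leucine CUC gene of S288C reads with the anticodon shown in capitals.
YNCG0028W, leucine CUC, chr7:700675-700756, plus strand: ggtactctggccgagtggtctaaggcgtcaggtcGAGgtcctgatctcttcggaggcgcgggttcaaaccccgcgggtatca
Valine GUA, with 2 genes in both strains, likewise had no gene on the later chromosomes of S288C. In the other direction, 5 families of S288C had no gene in the W303 annotation: arginine AGG, arginine CGG, glutamine CAG and threonine ACG with 1 gene each and leucine CUA with 3, all of them on chromosomes 8 to 16. The 3 leucine CUA genes were split, so S288C had 10 split families.

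Serine, tryptophan and leucine tRNAs were also measured by the authors at the level of RNA, and their genes are given here in more detail. The 11 serine genes belonged to 4 families, UCU with 7 genes, AGC with 2, and UCA and UCG with 1 each. The S288C partners of 6 of the UCU genes shared 1 sequence that 10 S288C genes carry, and the partner of W303_0Dtrna15S had a sequence of its own. That gene was 82 bases long in W303 and 83 bases in S288C. The 2 tryptophan genes, W303_0Gtrna5W and W303_0Gtrna6W, were both on chromosome 7, at 283945 to 284050 and 878817 to 878922 of the W303 assembly. Their partners carried a sequence that all 6 tryptophan genes of S288C share. The 10 leucine genes comprised 6 for UUG, 3 for UUA and 1 for CUC. The 3 UUA partners shared a sequence with each other and with 4 further S288C genes.

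Methionine had 2 genes on the 7 chromosomes. W303_0Dtrna9M on chromosome 4 was the partner of EMT1, an elongator tRNA gene, and W303_0Etrna10M on chromosome 5 was the partner of IMT4, an initiator tRNA gene. They were 73 and 72 bases long. No entry was labelled as a selenocysteine tRNA.

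Partners in S288C were found for 115 of the 117 genes by amino acid, gene order and the names of the 3 nearest ORFs on each side. The codon was the same in 114 pairs, the strand in 114 and the length in 113. A shared codon raised the score of a pair, so the codon is not independent of the pairing. The pair with a different strand was W303_0Gtrna11N, an asparagine gene annotated on the minus strand in W303 and on the plus strand in S288C. This pair shared only 1 of 6 ORF names, the fewest of all pairs, so the genes may not be at the same locus. The pair without a shared codon was the serine gene W303_0Dtrna14S and YNCD0024C. The W303 gene was annotated as a split serine AGC gene of 101 bases. YNCD0024C is 100 bases long with no intron, and its anticodon could not be read. It is shown here to be set beside YNCF0009C, the serine AGC gene printed above.
YNCD0024C, serine, chr4:1150842-1150941, minus strand: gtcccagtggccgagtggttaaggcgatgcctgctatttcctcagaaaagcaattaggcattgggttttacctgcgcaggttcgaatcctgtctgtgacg
In a global alignment 100 of 101 columns were identical between YNCD0024C and YNCF0009C. The chromosome 12 gene YNCL0039W was identical to YNCD0024C over all 100 bases but is annotated with an intron of 20 bases.

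Both genes without a partner stood in tandem with a gene of the same family on chromosome 7. W303_0Gtrna4C and W303_0Gtrna5C are cysteine UGC genes on the minus strand, 446 bases apart, between CLB6 and CLD1. S288C has 1 cysteine gene there. W303_0Gtrna16V and W303_0Gtrna17V are valine GUU genes on the plus strand, 334 bases apart, between RTS3 and TIF4631. S288C again has 1 gene there. Both copies of a pair fit the order of genes and the ORF names equally well. The partner went to the right-hand copies, W303_0Gtrna5C and W303_0Gtrna17V, by an arbitrary rule for ties. The distance to the flanking ORFs was set beside this choice. The S288C valine gene lay 503 bases from TIF4631, where W303_0Gtrna17V lay at 504 and W303_0Gtrna16V at 912 bases. The S288C cysteine gene lay 606 bases from CLB6, where W303_0Gtrna4C lay at 608 and W303_0Gtrna5C at 1126 bases. By this flank the cysteine gene without a partner would be W303_0Gtrna5C. On the other side the S288C genes were farther from the ORF than both W303 copies, at 6529 bases from CLD1 and 14061 bases from RTS3. The S288C genes are shown with their anticodons in capitals.
YNCG0030C, cysteine UGC, chr7:707108-707179, minus strand: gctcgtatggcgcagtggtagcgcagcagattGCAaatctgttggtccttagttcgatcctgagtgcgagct
YNCG0037W, valine GUU, chr7:823482-823555, plus strand: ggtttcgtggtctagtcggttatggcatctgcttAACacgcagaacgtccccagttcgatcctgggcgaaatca
Whether the second copies are present in the cells or arose in the assembly was not tested.

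In the other direction, 6 S288C genes of chromosomes 1 to 7 had no partner, and they fell in 2 places. Between SRD1 and MAK32 on chromosome 3, S288C has the methionine gene YNCC0008W and the lysine AAG gene YNCC0009C within 3933 bases. The W303 annotation has 10810 bases and 2 TKP/TY features there, and no tRNA gene. TKP/TY is the name that the annotation gives to the gag-pol genes of Ty elements. Between PMD1 and RTR1 on chromosome 5, S288C has 20113 bases with 6 ORFs, 2 retrotransposon ORFs of a Ty element and 4 tRNA genes, for histidine (YNCE0021C), lysine AAG (YNCE0022C), valine GUU (YNCE0023W) and isoleucine AUU (YNCE0025C). W303 has 10489 bases there with no ORF, no tRNA gene and 2 TKP/TY features. The ORFs without a feature in that stretch include GLC7, the essential catalytic subunit of protein phosphatase 1. Whether this stretch is missing from the cells or from the assembly was not tested.

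Many genes of S288C were copies of each other. The 275 nuclear tRNA genes of S288C had 70 different sequences, introns included, and the most frequent was found in 16 genes. Of the 115 partners, 101 shared their sequence with at least 1 other gene and 57 shared it with at least 9 others. Only 14 had a sequence of their own. Split genes made up 9 of these 14, among them SUP56, SUP61 and the isoleucine gene YNCD0017W. When 100 bases on each side were added, no partner had the same sequence as another tRNA gene. With flanks, each copy thus differed from every other in at least 1 base. How far the flanks differed was not measured.

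The letters GTTCGANNC, which fit the B box, were searched on the sense strand of the 115 partners. They were found in 92 genes, or 80% of them. Of the 120705 windows of 100 bases in the nuclear genome of S288C, 0.653% held the letters on either strand. In all 92 genes the match began 21 bases before the end of the gene. In the 75 unsplit genes with a match it came after a median of 51 bases (50 to 79), and in the 17 split genes after 75 bases (68 to 94). The value of 79 bases belonged to YNCD0024C, which is counted as unsplit although its identical copy YNCL0039W is annotated as split, and the other 74 unsplit genes reached 63 bases. The distance from the match to the 3′ end was thus the same in every gene with a match, and that from the 5′ end was longer in split genes with YNCD0024C as the exception. A match is a description of the letters and not a measured site.

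tRNA genes were spread unevenly over the 7 chromosomes. Chromosome 7 had 38 genes and chromosome 4 had 28, followed by chromosome 5 with 16, chromosome 2 with 13, chromosome 6 with 10, chromosome 3 with 8 and chromosome 1 with 4. Per 100000 bases, chromosome 6 was the densest with 3.60 genes and chromosome 2 the sparsest with 1.54. Chromosome 6 had 5 split genes among its 10, and chromosome 5 had none among 16. The genes took up 9322 bases with their introns, which is 0.188% of the 7 chromosomes. The tRNA features alone covered 8744 bases, as the 578 bases of introns lie outside them.

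The gap between neighbouring genes had a median of 23653.5 bases over 110 pairs, with quartiles of 8745.5 and 48058.5 bases. The widest gap was 276040 bases on chromosome 4, between the glycine gene W303_0Dtrna13G and the lysine gene W303_0Dtrna10K, and 144 ORFs lay in it. The next were 237375 bases (W303_0Btrna11D to W303_0Btrna3C) and 162121 bases (W303_0Btrna6F to W303_0Btrna10I), both on chromosome 2. Neighbours were on the same strand in 55 pairs, or 50%, and belonged to the same codon family in 4 pairs.

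Clusters were small. A second tRNA gene lay within 2000 bases of 16 genes, within 500 bases of 12 and within 100 bases of 6. Joined at up to 5000 bases, 39 genes formed 18 clusters of 2 genes and 1 cluster of 3 (glutamine, lysine and arginine genes on chromosome 5), and 78 genes stood alone. The closest genes were an arginine AGA and an aspartate GAC gene 10 bases apart, and this unit was found at 2 places, on chromosome 2 (W303_0Btrna14R and W303_0Btrna11D) and on chromosome 4 (W303_0Dtrna15R and W303_0Dtrna12D). In S288C the unit of 154 bases was identical at all positions between both places. It is printed once, from chromosome 2, with the bases between the genes in capitals.
YNCB0015W to YNCB0016W, arginine AGA and aspartate GAC, chr2:405878-406031, plus strand: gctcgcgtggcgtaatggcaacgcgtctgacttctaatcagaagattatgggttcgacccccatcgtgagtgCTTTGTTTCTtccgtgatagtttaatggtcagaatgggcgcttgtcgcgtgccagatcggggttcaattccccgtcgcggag
The next closest were an isoleucine AUU and a glycine GGC gene on chromosome 2, on opposite strands and 61 bases apart, and the leucine CUC and a lysine AAA gene on chromosome 7, on opposite strands and 195 bases apart. The tandem valine and cysteine genes followed. In the arginine and aspartate units both genes pointed the same way, while in the isoleucine and leucine pairs they faced each other.

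The gaps were set beside those of S288C in the 106 pairs whose genes both had partners. Left out were the gaps on either side of W303_0Gtrna4C and W303_0Gtrna16V, which had no partner by the arbitrary rule for ties. With the other copy as the partner, different gaps would be compared, so the counts depend on that choice. The gaps were equal in 38 pairs and within 50 bases of each other in 70. A difference of more than 4000 bases was seen in 12 pairs. The gap was longer in W303 in 8 of the 12, and in 7 of these 8 at least 1 TKP/TY feature lay between the genes. The value of 1 of the 7 rests on the uncertain pair of W303_0Gtrna11N. Of the 4 pairs with a shorter gap in W303, 1 had a TKP/TY feature between in W303. That pair, W303_0Etrna11E and W303_0Etrna13V, spans the stretch from PMD1 to RTR1. Among the 7 longer gaps, that from W303_0Ctrna12G to W303_0Ctrna3Q spans the stretch from SRD1 to MAK32. In both, the partners are not neighbours in S288C, where tRNA genes without a partner lie between them. These differences thus include the stretches described above. Among the 94 pairs that differed by 4000 bases or less, 11 had a TKP/TY feature between. TKP/TY features were counted in W303 only. Retrotransposon ORFs between the S288C partners were not counted for the gaps, so longer and shorter gaps cannot be compared on this point. The largest difference was on chromosome 2, where W303_0Btrna10V and W303_0Btrna14L were 43577 bases apart, with 3 TKP/TY features between, and their partners 20737 bases.

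**Figure D3:**
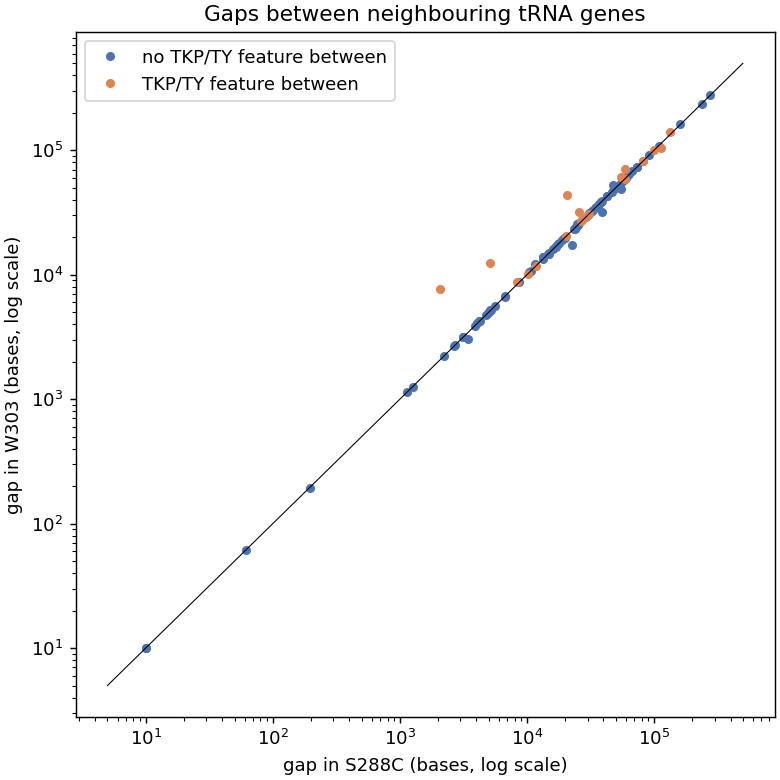
Gap between neighbouring tRNA genes in W303 (y axis) and between their partners in S288C (x axis), in bases on log scales, for 106 pairs. The line marks equal gaps, and orange points are pairs with a TKP/TY feature between the genes in W303. Most points lie on the line, from 10 to 276040 bases in W303, and the points farthest above it are orange.

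TKP/TY features were looked at from the side of the tRNA gene, with upstream and downstream taken from the direction of its transcription. These features mark gag-pol genes, so the distances are not those to the ends of whole Ty elements. A TKP/TY feature lay within 2000 bases of 16 genes, and it was upstream in 15 of them, from 309 to 1917 bases away. In 9 of the 15 it lay within 500 bases. The exception was the leucine CUC gene W303_0Gtrna20L, with a feature 726 bases downstream. That feature lay 435 bases upstream of the neighbouring lysine gene W303_0Gtrna18K, which is on the opposite strand. Within 5000 bases the nearest feature was upstream of 25 and downstream of 2 genes. Where the nearest feature was more than 5000 bases away, it was upstream in 45 of 90 genes. Features can be counted for more than 1 gene. Strand errors in the annotation would move a gene from one side to the other, and W303_0Gtrna11N, which is among the 16, has the opposite strand in S288C.

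**Figure D4:**
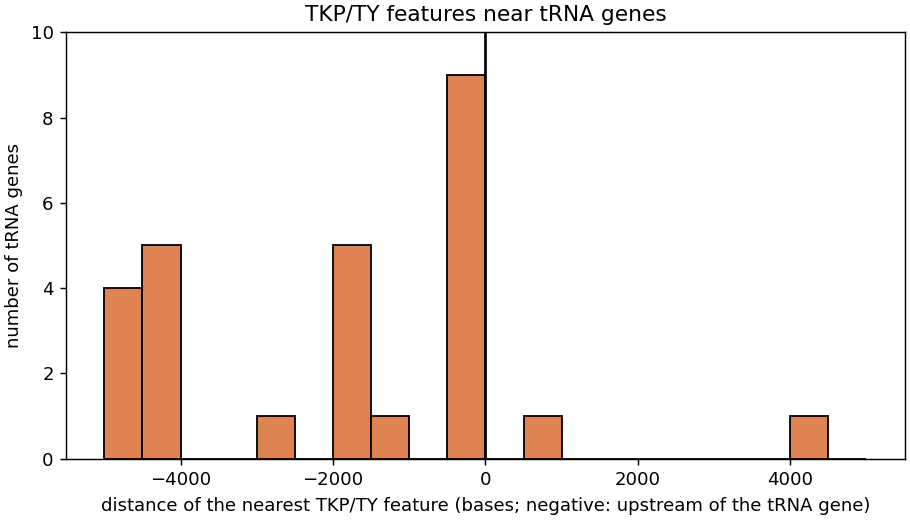
Distance from each tRNA gene to its nearest TKP/TY feature, in bases, for the 27 genes with a feature within 5000 bases, counted in bins of 500 bases. Negative distances are upstream of the tRNA gene, where 25 of the 27 genes lie, and the highest bar holds 9 genes with a feature within 500 bases upstream.

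No tRNA gene overlapped an ORF. The nearest ORF was at a median of 311 bases and at most 1989 bases away (W303_0Dtrna16L and ARO3). The closest were the lysine gene W303_0Dtrna12K at 112 bases from YDR444W, the glutamine gene W303_0Dtrna5Q at 117 bases from the glutaredoxin gene GRX3, and 3 valine genes: W303_0Gtrna14V at 117 bases from MTC3, W303_0Gtrna15V at 133 bases from ALG13 and W303_0Dtrna11V at 134 bases from the autophagy gene ATG31. In all 5 the near ORF was downstream of the tRNA gene. An ORF lay within 250 bases of 45 genes (38.5%) and within 500 bases of 74 (63.2%). These are the bounds of the size to which chromatin was sheared for the ChIP, so a fragment over a tRNA gene can also cover part of an ORF.

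ORFs stood much nearer downstream of tRNA genes than upstream. The median distance was 323 bases downstream and 1364 bases upstream. The downstream ORF was the nearer one for 100 of 117 genes (85.5%). It lay within 500 bases of 72 genes, against 15 for the upstream ORF. Among the 90 genes with no TKP/TY feature within 5000 bases, the downstream ORF was the nearer one for 74 (82.2%). In S288C the share was 74.2% of the 120 genes of chromosomes 1 to 7 that overlap no ORF, and 80.8% when retrotransposon ORFs were left out there as in W303.

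**Figure D5:**
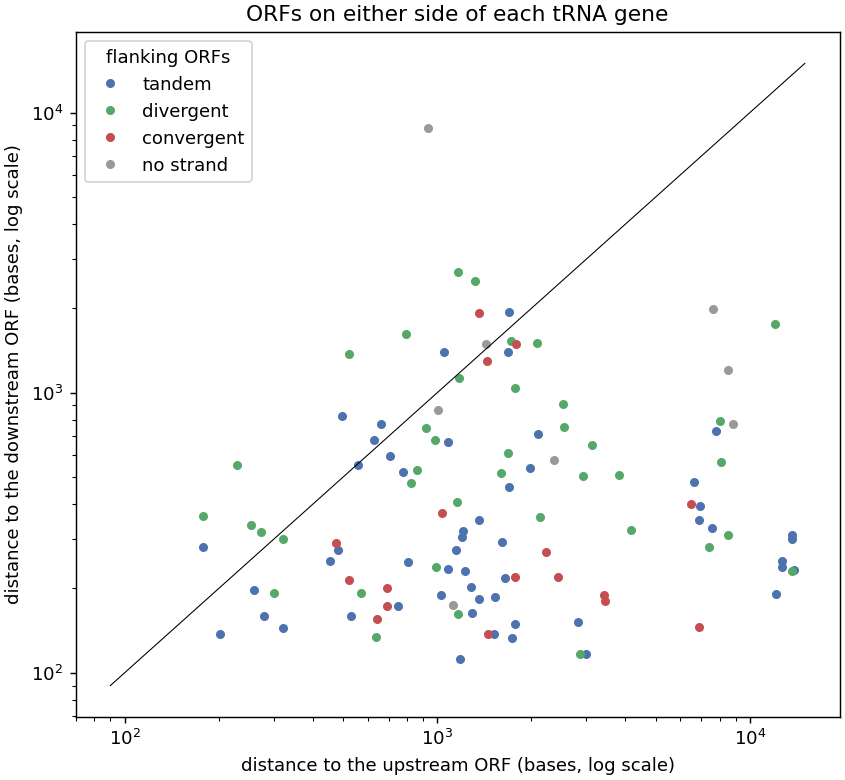
Distance from each of the 117 W303 tRNA genes to the ORF upstream (x axis) and downstream (y axis), in bases on log scales, coloured by the arrangement of both flanking ORFs. The line marks equal distances, and 100 of the 117 points lie below it, where the downstream ORF is nearer.

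The end that an ORF turned to the tRNA gene was also recorded. Of 234 flanking positions, 136 were taken by ORFs that faced the tRNA gene with their start and 89 by ORFs that faced it with their stop, and 9 had no strand. Downstream ORFs that faced with their stop were at a median of 208.5 bases (44 positions), and those that faced with their start were at 491.5 bases (70 positions). Upstream of the tRNA gene the medians were 1454 bases for stops and 1305.5 bases for starts. The median distance was thus smallest where the 3′ ends of both genes met.

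The ORFs on both sides pointed away from each other (divergent) around 39 tRNA genes, the same way (tandem) around 53, and towards each other (convergent) around 17. The remaining 8 had a flanking ORF with no strand. Of the 109 genes with both strands known, 35.8% were thus between divergent ORFs, 48.6% between tandem and 15.6% between convergent ORFs. Among all 2146 spaces between ORFs of known strand on chromosomes 1 to 7 the shares were 25.9%, 48.2% and 25.9%. By bases, however, divergent spaces made up 33.1% of the sequence between ORFs, tandem spaces 53.0% and convergent spaces 14.0%, so the arrangement of tRNA genes lay closer to the share of bases than to the share of spaces for divergent and convergent ORFs. The space between the ORFs on both sides of a tRNA gene had a median of 1941 bases over 105 spaces, from 412 to 14163 bases. The other 2120 spaces had a median of 374.5 bases, and 963 of them were at least as long as the shortest one with a tRNA gene. A space has to be long enough to hold the gene, so part of this difference is fixed by the choice of spaces. No more than 2 tRNA genes shared a space, which was the case in 12 of the 105.

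The genes that make and process tRNAs were looked up in the same annotation. All 55 genes of the lists had a feature, 49 of them with the same size as in S288C. All 6 subunits of TFIIIC and all 3 of TFIIIB had the same size. Of the 21 synthetases, which load amino acids onto tRNAs, 19 had the same size, and of the 6 tRNA splicing genes 4 had. MAF1, the repressor of RNA polymerase III, was noted as different in size. Over all lists, 6 of the 55 genes differed in size. The paper's supplement counts the ORFs of another size than in S288C among all ORFs of the annotation. The lists were not compared with that count here, so these size counts are not read as particular to the lists. Of the 55 genes, 28 were on chromosomes 1 to 7, where tRNA genes are annotated. Next to a tRNA gene, with no other ORF between, stood 5 of these 28. Of all 2225 spaces between ORFs on these chromosomes, 105 (4.7%) held a tRNA gene. This is a share of spaces and not of ORFs. Each space has an ORF at either end and an ORF borders a space on each side, so the share of ORFs can be higher. The share of all ORFs next to a tRNA gene was not counted, so the 5 are not read as a trait of the lists. SES1, the seryl-tRNA synthetase, stood 637 bases upstream of the valine gene W303_0Dtrna11V, and YDR341C, the arginyl-tRNA synthetase, 1206 bases from the serine gene W303_0Dtrna14S. THG1, which adds a guanosine to histidine tRNA, stood 201 bases from the aspartate gene W303_0Gtrna13D, and the RNase P subunit POP6 1032 bases from the aspartate gene W303_0Gtrna14D. SEN34, a subunit of the splicing endonuclease, was 6473 bases from the unsplit alanine gene W303_0Atrna1A. None of the tRNA genes next to a synthetase gene was for the amino acid of that synthetase.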

How the data were processed

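The file analysed was the annotation deposited by the authors for the W303 assembly ASM216351v1, to which the ChIP-seq reads were mapped. Its values are positions in bases and text labels. The authors took the tRNA features from the Yeast Genome Annotation Pipeline and added ORF names and size notes from S288C. No source used here states which version of that pipeline was run. For the reads, the submitters' notes list bedtools, BWA, ChIPseeker, deepTools, MACS2 and SAMtools, with no version. No value of a library was used, so sequencing depth does not enter.

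Distances are the bases between the ends of features. ORFs were features with a gene name, without Y' and TKP/TY features. ORFs of S288C were its protein-coding genes, retrotransposon genes included unless stated. S288C sequences and annotation came from RefSeq (build R64), and each build kept its own coordinates. Anticodons were read from the sequence in 274 of 275 genes. In unsplit genes at least 4 of 5 stem pairs had to form. In split genes a triplet that ends 1 base before the intron scored higher, so fewer pairs could suffice there. W303 genes were paired with S288C genes in order along a chromosome, with the same amino acid and at least 1 shared name among the 3 nearest ORFs on each side. The script was tested on simulated data. Python 3.11.15, NumPy 2.4.6, Biopython 1.88 and Matplotlib 3.10.9 were used.

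The members and lists were chosen with earlier results of these data known. Named genes were split, largest (ties included) and 1-gene families, serine, tryptophan, leucine and methionine genes, the closest and widest neighbours, the shortest and longest genes, those nearest to ORFs, genes without a partner and list genes beside a tRNA gene. The limits of 50 and 4000 bases for gaps, the side of TKP/TY features and of ORFs, the letters of the B box and the genes named with them were chosen after the annotation had been seen. Alternative definitions, or the same summary in S288C, were tried for 9 summaries. None was tried for the side of TKP/TY features, the gap differences from S288C, the B box letters or the copies per sequence.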

Additional observations from a re-analysis of the deposited data

How the results depend on the processing

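Of 24 alternative values for 9 summaries, 21 stayed within 1.5 times the value reported. These values include the same summaries taken from S288C, which is another genome and not another processing of the W303 annotation. All values from S288C were among the 21, and for the number of split genes S288C was the only alternative. Counted by amino acid only, the 36 codon families became 20. The median gap between neighbours rose from 23653.5 to 38325 bases when only genes on the same strand were taken as neighbours. The number of genes with another tRNA gene nearby rose from 16 within 2000 bases to 39 within 5000 bases. These 3 follow from the definitions themselves. The share of genes nearer to the downstream ORF, with alternatives chosen after seeing the data, ran from 74.2% in S288C to 85.5%. Leaving out replicates did not apply, since no library entered. No paired analysis was possible because no result came from a test over samples. The annotation has no tRNA feature on chromosomes 8 to 16, and family sizes, gaps and arrangements of W303 on those chromosomes were not analysed here. Each exon border differs by 1 base between the annotations, so intron lengths differ by 2 bases.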
